A study of Macaca mulatta with 18 samples.

Results

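The mitochondrial ribosomal protein genes are the nuclear genes named MRPL for the large subunit and MRPS for the small subunit of the ribosome inside mitochondria. Members were all genes of the macaque RNA table whose symbol starts with MRPL or MRPS followed by a digit. The rule itself uses no expression value, but the family was chosen with earlier results of these data known. This gave 44 of 22345 genes, 34 of the large and 10 of the small subunit, each with its own symbol. Symbols came from a name table that covered 65.8% of the identifiers. A further 26 identifiers of the family in that table had no row among the RNA values and are not analysed here, and neither are MRPL12, MRPL58 and MRPS36. The family was therefore measured in part, and the small subunit more thinly than the large.

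The series holds 18 samples of wild-type rhesus macaque (Macaca mulatta) fetal brain at embryonic day 84. The tissue labels CP and GZ are not spelled out by the submitters and are kept as abbreviations. RNA-seq was done on 3 CP and 3 GZ libraries made from total RNA with a TruSeq RNA kit. The labels give no treatment or mutation. They leave unsaid whether each library is a separate animal, and p-values here therefore cover only the spread among these 6 libraries, part of which may be technical.

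Mitochondria keep a small genome that encodes core subunits of the respiratory chain and of ATP synthase, and a dedicated ribosome inside the organelle translates those messages. The ribosomal RNAs of this ribosome come from the mitochondrial genome, but its proteins are encoded in the nucleus, made in the cytosol and imported. Many of the proteins descend from bacterial ribosomal proteins and others are found only in mitochondria. Inherited defects in several of them cause combined oxidative phosphorylation deficiency, which often affects the brain.

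RNA values are log2 FPKM normalized by the authors with cqn, so they are per transcript length and can be compared between genes. Library medians over all genes lay between 1.82 and 1.87 on this log2 scale, and read depth is unknown. Over 8 Y-linked genes the median log2 level in the libraries numbered 1, 2 and 3 was 1.40, 3.34 and -1.78 in CP and -0.17, 3.63 and -1.78 in GZ. By these medians the libraries numbered 2 were high and those numbered 3 low in both tissues, and both numbered 1 lay between. The CP and GZ libraries numbered 1 also stood apart from each other, and the reason was not tested. Counts of called members and of the companion lists are therefore given below with and without both libraries numbered 1. Most marker lists also differed between the tissues, with the same counts without both libraries numbered 1 except where given. Neuron markers were higher in CP for 7 of 8 genes, with summed levels of 1649 to 1787 FPKM in CP and 806 to 978 FPKM in GZ. Vessel markers were higher in CP for 6 of 6 (96.7 to 136.6 FPKM in CP and 22.5 to 49.4 FPKM in GZ), and dividing progenitor markers were lower in CP for 7 of 7 (57.2 to 100.4 FPKM in CP and 197.8 to 285.1 FPKM in GZ). Ventral forebrain markers were lower in CP for 4 of 4 (148 to 174 FPKM in CP and 348 to 487 FPKM in GZ). Astrocyte markers were higher in CP for 1 of 3 and oligodendrocyte lineage markers were lower in CP for 2 of 3. Erythroid markers were higher in CP for 2 of 2, but limma called neither without both libraries numbered 1 (1 at an unadjusted p under 0.05). With all 6 libraries limma called none of 3 microglia and none of 4 meninges markers. At an unadjusted p under 0.05, 1 meninges marker was higher in CP and 1 was lower. Without both libraries numbered 1, limma called 1 microglia marker lower in CP and 1 meninges marker higher. The part of these cell types in the differences below was not tested, and in bulk tissue fewer cells of a type and less RNA per cell cannot be told apart.

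All 44 genes were above the low-value limit and spanned a wide range of levels. Averaged over the 6 libraries, 32 of them lay above the median level of all tested genes. The median level was 4.45 for large-subunit genes and 4.74 for small-subunit genes on the log2 scale. MRPL35, the counterpart of bacterial bL35, had the highest level of the large subunit, with log2 values of 5.97, 5.85 and 6.17 in CP and 6.10, 5.86 and 6.10 in GZ. MRPL28, the counterpart of bacterial bL28, had the lowest, with 1.35, 1.62 and 1.55 in CP and 1.34, 1.60 and 1.56 in GZ. Both genes overlapped between the tissues, with differences of -0.02 ± 0.11 and 0.0087 ± 0.18 (CP minus GZ, log2, SE). In the small subunit MRPS22, a mitochondria-specific protein, was highest at 5.46, 5.52 and 5.59 in CP and 5.67, 5.60 and 5.70 in GZ. MRPS23, also specific to mitochondria, was lowest at 2.06, 2.49 and 2.62 in CP and 2.60, 2.26 and 2.50 in GZ. The 3 CP values of MRPS22 lay just under its 3 GZ values, but the difference of -0.14 ± 0.07 did not pass the test (adjusted p = 0.155), and the values of MRPS23 overlapped. The order of the genes by level was much alike in the tissues. Across the 44 genes, CP means and GZ means had a Pearson r of 0.92 and a Spearman rho of 0.92, given as a description across genes whose values share the same 6 libraries.

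**Figure D1:**
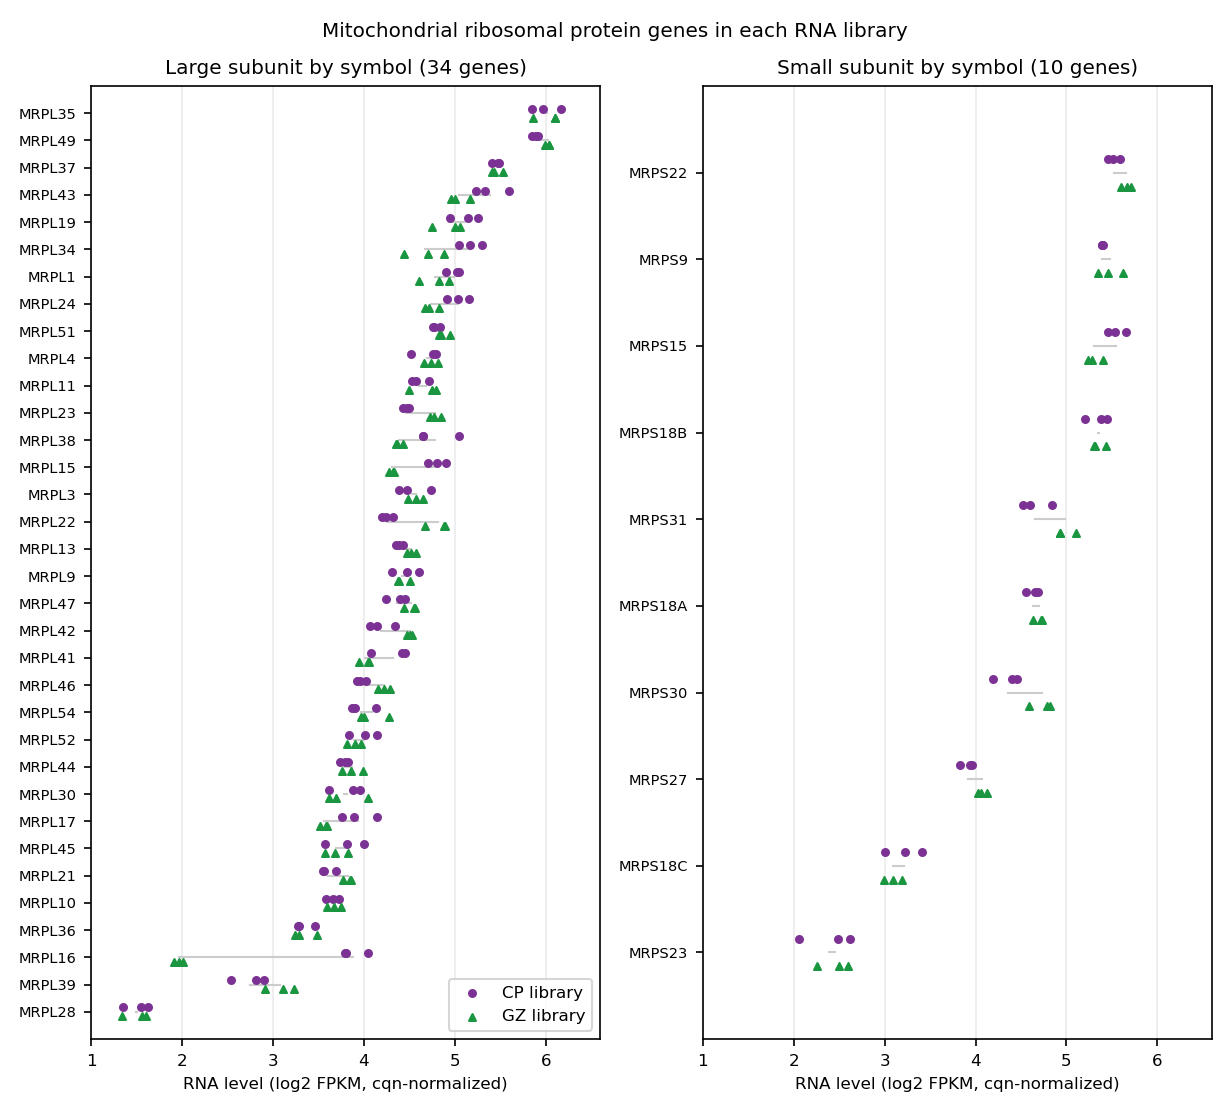
RNA level (log2 cqn-normalized FPKM, x axis) of each gene in each library, with 3 CP libraries as circles above 3 GZ libraries as triangles, ordered by mean level within the large and the small subunit. Grey lines join the tissue means; MRPL16 has the widest gap, and for most genes the points of both tissues lie close together between 3 and 6.

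The comparison of CP with GZ asked which of these genes differ between the tissues. Of the 44 genes 8 were higher in CP, 5 were lower in CP than in GZ and 31 did not pass the test (limma, Benjamini-Hochberg adjusted p under 0.05 over all 13460 tested genes). That is 29.5% of the members, against 45.4% of all tested genes. In CP 20.9% of all tested genes were higher and in GZ 24.5% were. The median difference was -0.03 for the members and -0.05 for all tested genes on the log2 scale (CP minus GZ), and the median size of a difference was 0.14 for the members and 0.35 for all tested genes. The quartiles of the members lay at -0.14 and 0.13, against -0.38 and 0.30 for all tested genes. By mean, 19 members were higher in CP and 25 were higher in GZ.

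Most members had both tissues close to each other, and the error of the fit allows a bound on that. The 95% interval of the difference lay within 1.5-fold in either direction for 35 of the 44 genes (79.5%), against 38.8% of all tested genes. Those outside were MRPL16, MRPL15, MRPL34, MRPL38, MRPL17, MRPL43, MRPL39, MRPS30 and MRPL22. Only MRPL16 differed by 1.5-fold or more, where 28.8% of all tested genes did. Such closeness was not particular to this family. The interval lay within 1.5-fold for 75.6% of nuclear oxidative phosphorylation subunits and 82.4% of mitochondrial aminoacyl-tRNA synthetases. For cytosolic ribosomal protein genes it was 69.6%, and for mitochondrial translation factors 54.5%. The median residual SD of the fit was 0.12 for the members and 0.17 for all tested genes. The 3 CP values did not overlap the 3 GZ values for 21 members (47.7%, against 56.4% of all tested genes), with CP above for 9 (25.5% of all tested genes) and GZ above for 12 (30.9% of all tested genes).

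The calls other than that of MRPL16 rested on small differences. With CP library 1, 2 or 3 left out in turn 7, 6 and 11 members were called (15.9%, 13.6% and 25.0%). All tested genes then gave 38.4%, 37.9% and 37.3%. With GZ library 1, 2 or 3 left out 5, 5 and 7 members were called (11.4%, 11.4% and 15.9%), against 33.5%, 36.7% and 44.6% of all tested genes. Without both libraries numbered 1, MRPL16 alone was called (2.27% of members, against 25.0% of all tested genes). The other 12 kept their direction in that fit, which was fixed in advance since their CP and GZ values did not overlap. At an unadjusted p under 0.05 that fit had 6 members higher in CP and 3 lower. The share of all tested genes at this unadjusted threshold is not given here or below, so such counts are descriptions only.

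**Figure D2:**
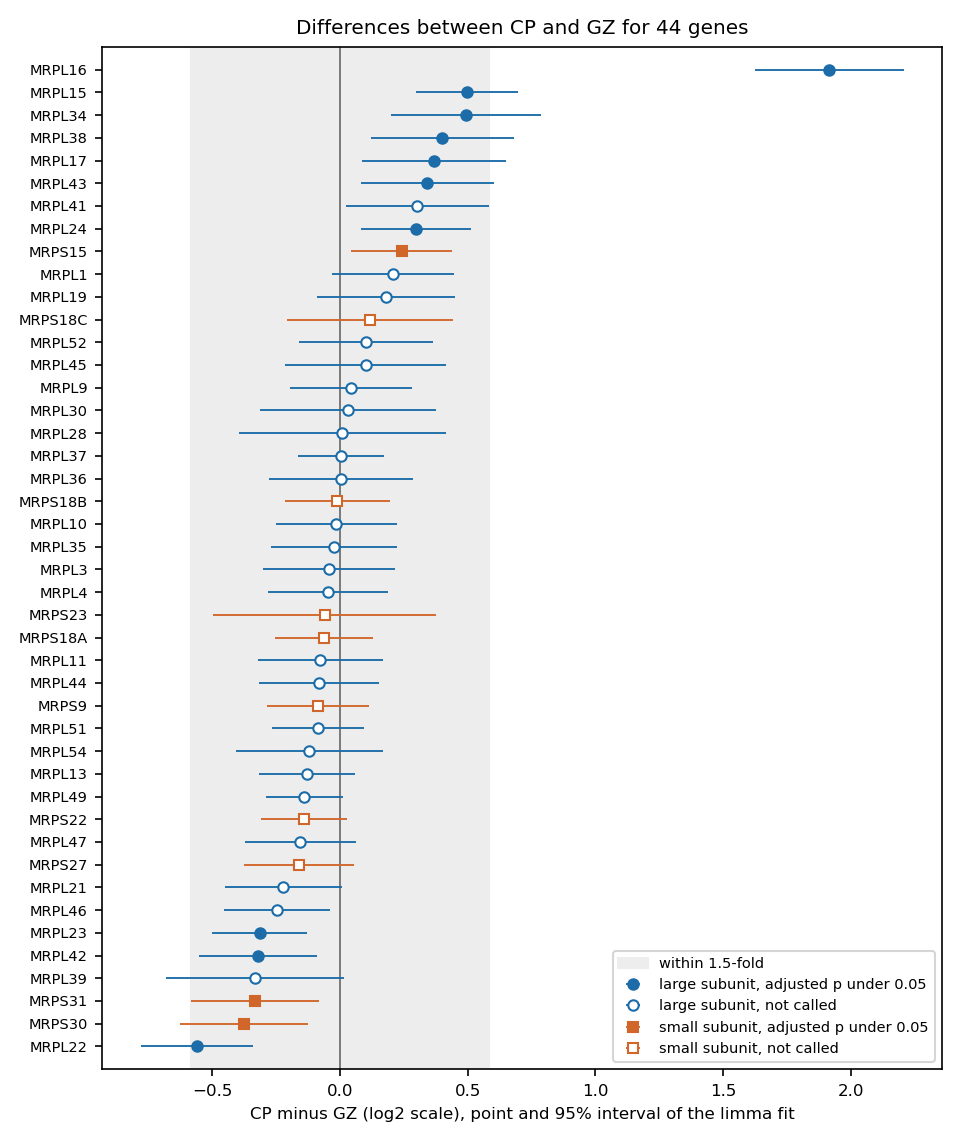
Difference between CP and GZ (CP minus GZ, log2 scale, x axis) for each of the 44 genes, ordered from highest in CP at the top to lowest in CP at the bottom, with the 95% interval of the limma fit. Filled symbols have an adjusted p under 0.05, the grey band marks 1.5-fold in either direction, and MRPL16 at 1.91 is the one point outside it.

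MRPL16 stood apart from the rest of the family. Its bacterial counterpart uL16 sits near the A site and the peptidyl transferase centre and joins the large subunit late in its assembly. The log2 level of MRPL16 was 3.81, 4.04 and 3.80 in CP and 1.97, 1.92 and 2.01 in GZ. All 3 CP libraries lay far above all 3 GZ libraries, and the libraries of a tissue lay close together, with means of 3.88 ± 0.14 in CP and 1.97 ± 0.05 in GZ (SD, n = 3 each). The difference was 1.91 ± 0.13 on the log2 scale (SE; 95% interval 1.62 to 2.21), a level 3.77-fold higher in CP (adjusted p = 5.9e-05). By size this was rank 326 of 13460 tested genes, beyond 97.6% of them. Among the 44 members MRPL16 was rank 34 by CP mean and rank 43 by GZ mean, so its level was low for the family in GZ and nearer the others in CP. The call held in all 15 alternatives, and without both libraries numbered 1 the difference was 1.95 (adjusted p = 0.00350).

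Without MRPL16, the SD of the differences across the other 43 members was 0.24 on the log2 scale, against 0.37 with it and 0.71 across all tested genes. The median difference of those 43 was -0.04.

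A further 6 large-subunit genes and 1 small-subunit gene were higher in CP. MRPL15, the counterpart of bacterial uL15, had log2 levels of 4.91, 4.80 and 4.71 in CP and 4.27, 4.32 and 4.33 in GZ. The tissues were well separated, and the difference of 0.50 ± 0.09 was a 1.41-fold higher level in CP (adjusted p = 0.00294). Its call held when any 1 library was left out but not without both libraries numbered 1 (0.43, adjusted p = 0.0606). MRPL34, the counterpart of bacterial bL34, had 5.29, 5.04 and 5.17 in CP and 4.70, 4.44 and 4.88 in GZ. Its GZ libraries were more spread than those of MRPL15, but the groups did not overlap. The difference of 0.49 ± 0.13 was 1.41-fold (adjusted p = 0.0149), and it fell short without CP library 1 (adjusted p = 0.0539) and when libraries 1 of both tissues were dropped (0.45, adjusted p = 0.117).

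MRPL38, a mitochondria-specific protein of the central protuberance, had log2 levels of 4.65, 5.05 and 4.65 in CP and 4.43, 4.36 and 4.35 in GZ. CP library 2 was high and the other CP libraries lay nearer to GZ. The difference was 0.40 ± 0.12, or 1.32-fold (adjusted p = 0.0283). MRPL17, the counterpart of bacterial bL17 at the exit of the protein tunnel, had 3.89, 4.14 and 3.76 in CP and 3.51, 3.60 and 3.58 in GZ. Again CP library 2 was the highest, without overlap between the tissues, and the difference was 0.37 ± 0.12, or 1.29-fold (adjusted p = 0.0390). MRPL43, found only in mitochondrial ribosomes, had 5.33, 5.59 and 5.23 in CP and 5.17, 4.96 and 5.00 in GZ. The lowest CP library and the highest GZ library nearly met, and the difference was 0.34 ± 0.11, or 1.27-fold (adjusted p = 0.0382).

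MRPL24, the counterpart of bacterial uL24, had log2 levels of 5.16, 5.03 and 4.92 in CP and 4.83, 4.71 and 4.67 in GZ, and differed by 0.30 ± 0.09, or 1.23-fold (adjusted p = 0.0326). MRPS15, whose bacterial counterpart uS15 binds the small-subunit RNA early in assembly, had 5.46, 5.66 and 5.53 in CP and 5.41, 5.28 and 5.23 in GZ. The gap between its CP library 1 and GZ library 1 was narrow. The difference of 0.24 ± 0.09, or 1.18-fold, only just passed (adjusted p = 0.04995), and the call held in 3 of 15 alternatives.

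Each of these smaller calls was lost when some single libraries were left out, and fewer libraries also lower what the test can call. MRPL38 was not called without GZ library 1, 2 or 3 (adjusted p of 0.0548 to 0.0711). MRPL17 was called only when CP library 3 was the one left out (0.0609 to 0.117 otherwise), as was MRPL24 (0.0521 to 0.109 otherwise). MRPL43 was not called without CP library 1 or 2 or GZ library 2 or 3 (0.0694 to 0.110), and MRPS15 without any of the 6 (0.0566 to 0.126). Without both libraries numbered 1 the differences were 0.49 for MRPL38, 0.36 for MRPL17, 0.43 for MRPL43, 0.28 for MRPL24 and 0.34 for MRPS15, none of them called.

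Another 5 members were lower in CP. MRPL22, whose bacterial counterpart uL22 lines the tunnel through which the new protein leaves, had log2 levels of 4.20, 4.32 and 4.25 in CP and 4.89, 4.88 and 4.67 in GZ. All CP libraries lay well under all GZ libraries, and the difference of -0.56 ± 0.10 was a 1.47-fold lower level in CP (adjusted p = 0.00268). The call held when any 1 library was left out, and it fell short without both libraries numbered 1 (-0.49, adjusted p = 0.0539). MRPL23, whose bacterial counterpart uL23 is a docking site for chaperones at the tunnel exit, had 4.43, 4.50 and 4.47 in CP and 4.85, 4.73 and 4.77 in GZ. The libraries of each tissue lay close together, and the difference was -0.31 ± 0.08, or 1.24-fold lower in CP (adjusted p = 0.0144; 0.0703 without GZ library 1).

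MRPS30 carries a small-subunit symbol but lies in the large subunit of the mammalian mitochondrial ribosome. Its log2 levels were 4.46, 4.19 and 4.40 in CP and 4.82, 4.78 and 4.58 in GZ, a difference of -0.38 ± 0.11, or 1.30-fold lower in CP (adjusted p = 0.0239). MRPS31, a mitochondria-specific protein of the small subunit, had 4.84, 4.60 and 4.52 in CP and 5.10, 4.93 and 4.93 in GZ. CP library 1 lay just under the GZ libraries, and the difference was -0.33 ± 0.11, or 1.26-fold lower in CP (adjusted p = 0.0367). MRPL42, also specific to mitochondria, had 4.14, 4.07 and 4.35 in CP and 4.47, 4.53 and 4.51 in GZ, a difference of -0.32 ± 0.10, or 1.25-fold lower in CP (adjusted p = 0.0308).

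In these 3 genes the groups did not overlap, but each call was again lost when some single libraries were left out. MRPS30 was not called without CP library 2 or 3 or GZ library 1 or 2 (adjusted p of 0.0507 to 0.0920), and MRPS31 without the same libraries (0.0633 to 0.132). MRPL42 was called only when CP library 3 was the one left out (0.0543 to 0.0881 otherwise). Without both libraries numbered 1 the differences were -0.38 for MRPS30, -0.37 for MRPS31, -0.32 for MRPL42 and -0.26 for MRPL23, none of them called.

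**Figure D3:**
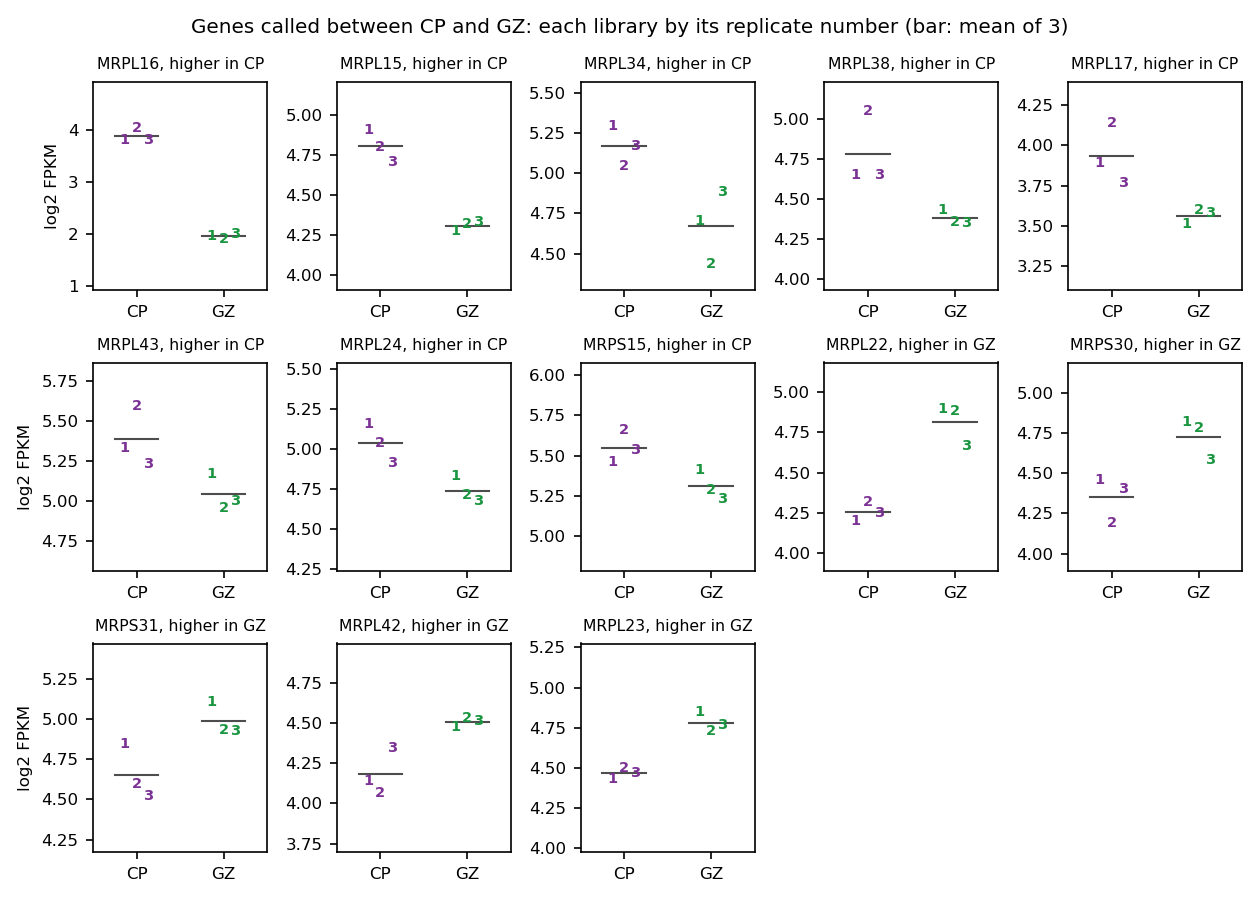
Log2 FPKM of the 13 genes with an adjusted p under 0.05 in CP (left in each panel) and GZ (right), with each library drawn as its replicate number and the tissue mean as a bar. Panels have their own y axes, all in log2 FPKM; the tissues do not overlap in any panel, and the gap is widest for MRPL16, at 3.88 in CP and 1.97 in GZ.

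The 31 genes that did not pass the test had differences from -0.33 to 0.30 on the log2 scale, and 16 of them differed by less than 0.1 in either direction. For 30 of the 31 the 95% interval lay within 1.5-fold. Another 8 of the 31 still had no overlap between the tissues. MRPL41 had the higher values in CP (4.32 in CP and 4.02 in GZ by mean, difference 0.30 ± 0.12, adjusted p = 0.0740), and its call was gained when CP library 3 was left out. The other 7 were MRPL13, MRPL21, MRPL39, MRPL46, MRPL49, MRPS22 and MRPS27, each with all 3 GZ values above all 3 CP values. The nearest to the threshold of these was MRPL46, at 3.97 in CP and 4.22 in GZ by mean, with a difference of -0.25 ± 0.09 (adjusted p = 0.0554). MRPL49 showed how tight some members were, with log2 levels of 5.91, 5.84 and 5.89 in CP and 6.03, 6.04 and 5.99 in GZ, a difference of -0.14 ± 0.06 (adjusted p = 0.116).

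Large-subunit and small-subunit genes were set side by side. In the large subunit 7 genes were higher in CP, 3 were lower and 24 did not pass (29.4% called). In the small subunit 1 was higher in CP, 2 were lower and 7 did not pass (30.0% called). The shares called were alike, and both lay under the 45.4% of all tested genes. The median difference was -0.0056 for the large and -0.07 for the small subunit on the log2 scale. In the large subunit 17 genes had the higher mean in CP and 17 in GZ, while in the small subunit 2 had it in CP and 8 in GZ. Without both libraries numbered 1, MRPL16 was the one call in the large subunit and limma called none in the small, where 1 was higher in CP and 2 were lower at an unadjusted p under 0.05. Of all tested genes 25.0% were called in that fit. The 95% interval lay within 1.5-fold for 26 of 34 large-subunit and 9 of 10 small-subunit genes.

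Within each library the median level of the large-subunit genes lay under that of the small-subunit genes. The gap by symbol, large minus small, was -0.36, -0.25 and -0.15 on the log2 scale in CP libraries 1, 2 and 3 and -0.51, -0.42 and -0.36 in GZ libraries 1, 2 and 3. The smallest gap of GZ, in library 3, was about as wide as the widest of CP, in library 1, and no test was made of this gap.

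Symbols do not always give the subunit. Placed by the structure of the mammalian ribosome, MRPS18A and MRPS30 belong to the large subunit. The large subunit then had 36 genes with 7 higher in CP and 4 lower (30.6% called, against 45.4% of all tested genes). The small subunit had 8 genes with 1 higher and 1 lower (25.0% called). MRPL16 was the one call in this large subunit without both libraries numbered 1, and limma called none in the small (1 higher in CP and 1 lower at an unadjusted p under 0.05). With all 6 libraries the median differences by structure were -0.02 for the large and -0.07 for the small subunit. By structure the median log2 level of the large subunit was 4.43, 4.39 and 4.42 in CP and 4.50, 4.46 and 4.49 in GZ. That of the small subunit was 5.12, 4.90 and 4.95 in CP and 5.21, 5.11 and 5.08 in GZ. The gap of CP library 1 then lay among those of the GZ libraries.

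MRPS18A, MRPS18B and MRPS18C are paralogs of one another and counterparts of bacterial bS18, and they differed far more in level than between tissues. MRPS18B had log2 levels of 5.44, 5.20 and 5.38 in CP and 5.32, 5.31 and 5.43 in GZ. MRPS18A had 4.65, 4.69 and 4.56 in CP and 4.72, 4.73 and 4.63 in GZ, and MRPS18C had 3.00, 3.41 and 3.22 in CP and 3.09, 3.19 and 3.00 in GZ. All 3 overlapped between the tissues, with differences of -0.01 ± 0.09 for MRPS18B, -0.06 ± 0.08 for MRPS18A and 0.12 ± 0.14 for MRPS18C. The order MRPS18B, MRPS18A, MRPS18C held in each of the 6 libraries.

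Members with a bacterial counterpart numbered 26, and 18 were specific to mitochondria. Of the 26, 6 were higher in CP and 2 were lower (30.8% called, against 45.4% of all tested genes), with a median difference of -0.0040. Of the 18, 2 were higher in CP and 3 were lower (27.8% called), with a median of -0.10. The first class kept 1 call, MRPL16, without both libraries numbered 1, and limma then called none of the second (2 higher in CP and 2 lower at an unadjusted p under 0.05). The CP and GZ values did not overlap for 10 of the 26 (38.5%), with CP above for 6, and for 11 of the 18 (61.1%), with CP above for 3. Over all tested genes the share without overlap was 56.4%, near that of the second class. The 5 mitochondria-specific genes with a small-subunit symbol all had the lower mean in CP, with GZ above without overlap for 4 of them, and 2 of these passed the test, MRPS30 and MRPS31. These are counts over few genes, and the difference between the classes was not tested.

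Members around the exit of the tunnel are given side by side as a description, since these 6 were chosen after their values were seen. MRPL17 and MRPL24 were higher in CP and MRPL22 and MRPL23 were lower, as given above, none of them called without both libraries numbered 1. MRPL45, a mitochondria-specific protein at the tunnel exit, had a mean log2 level of 3.79 in CP and 3.69 in GZ (difference 0.10 ± 0.14, adjusted p = 0.586). MRPL47, the counterpart of bacterial uL29, had 4.36 in CP and 4.52 in GZ (-0.15 ± 0.09, adjusted p = 0.215).

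Of 15 listed genes of the mitochondrial ribosome in which mutations cause combined oxidative phosphorylation deficiency in humans, 6 were measured. MRPL24 was higher in CP, as described above (16.7% called, against 45.4% of all tested genes). None was lower by limma or at an unadjusted p under 0.05, and the median difference of the 6 was -0.07 on the log2 scale. MRPL3, the counterpart of bacterial uL3, had log2 levels of 4.47, 4.38 and 4.73 in CP and 4.65, 4.49 and 4.58 in GZ (-0.04 ± 0.11, adjusted p = 0.791). MRPL44, a mitochondria-specific protein related to ribonuclease III, had 3.74, 3.83 and 3.80 in CP and 3.76, 3.85 and 3.99 in GZ (-0.08 ± 0.10, adjusted p = 0.547). Both overlapped between the tissues. MRPL39, which resembles threonyl-tRNA synthetase, had 2.54, 2.90 and 2.81 in CP and 3.10, 3.23 and 2.91 in GZ. Its tissues only just separated, and the difference of -0.33 ± 0.15 did not pass the test (adjusted p = 0.108). MRPS22 and MRPS23 of this list are described above.

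Read library by library, the family as a whole hardly shifted. The median log2 level of the 44 members was 4.45, 4.42 and 4.44 in CP libraries 1, 2 and 3 and 4.53, 4.50 and 4.51 in GZ libraries 1, 2 and 3. The median distance of a member from its own tissue mean was 0.05 to 0.09 in the 6 libraries, against 0.08 to 0.12 for all tested genes.

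Other parts of the machinery that makes and serves this ribosome were read from lists. Among ribosomal proteins whose names lack the family prefix, 3 of 5 were measured. GADD45GIP1, also a protein of the large subunit, had a mean log2 level of 4.41 in CP and 4.03 in GZ (0.38 ± 0.11, 1.30-fold higher in CP, adjusted p = 0.0238), and it was called only when CP library 2 was the one left out (0.0517 to 0.0805 otherwise; 0.167 without both libraries numbered 1). DAP3 and PTCD3, both of the small subunit, differed by 0.09 and -0.09 and were not called.

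Of 11 tested translation factors 3 were higher in CP and 1 was lower (36.4% called, against 45.4% of all tested genes), with a median difference of -0.05. MTIF2, which brings the initiator tRNA to the ribosome, had a mean log2 level of 5.77 in CP and 5.28 in GZ (0.50 ± 0.10, 1.41-fold higher in CP, adjusted p = 0.00560). GFM1, the elongation factor for translocation, had 5.01 in CP and 4.64 in GZ (0.37 ± 0.10, adjusted p = 0.0155), and MTRF1L, a release factor, had 4.73 in CP and 4.47 in GZ (0.27 ± 0.09, adjusted p = 0.0491). MTRFR, which acts in rescue of stalled ribosomes, was lower, at 3.22 in CP and 3.70 in GZ (-0.48 ± 0.12, adjusted p = 0.0122). MTRF1L was not called without any of the 6 libraries (0.0590 to 0.139) and GFM1 not without CP library 3 or GZ library 1 or 2 (0.0526 to 0.0540). Without both libraries numbered 1 only MTIF2 was called.

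Genes for assembly of the ribosome and modification of its RNA followed. Of 15 tested none was higher in CP by limma (1 at an unadjusted p under 0.05) and 4 were lower, with a median difference of -0.17. The share lower in CP was near the 24.5% of all tested genes that were higher in GZ. MRM2, a methyltransferase of the large ribosomal RNA, had a mean log2 level of 2.82 in CP and 3.50 in GZ (-0.68 ± 0.14, 1.60-fold lower in CP, adjusted p = 0.00546). TFB1M, a methyltransferase of the small ribosomal RNA, had 3.30 in CP and 3.82 in GZ (-0.52 ± 0.13, adjusted p = 0.0124). The RNA helicases DDX28 (2.17 in CP and 2.58 in GZ, adjusted p = 0.0441) and DHX30 (5.48 in CP and 5.74 in GZ, adjusted p = 0.0245) were lower by 0.41 and 0.26 in CP. DDX28 was called only when CP library 1 was the one left out (0.0722 to 0.124 otherwise) and DHX30 not without CP library 2 or 3 or GZ library 1 or 2 (0.0535 to 0.0839). None of the 15 was called by limma without both libraries numbered 1, where 2 were lower in CP at an unadjusted p under 0.05.

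Of 17 mitochondrial aminoacyl-tRNA synthetases, which charge the tRNAs this ribosome reads, 1 was higher in CP and 1 lower, with a median difference of 0.02. That is 11.8% called, against 45.4% of all tested genes. AARS2, for alanine, had a mean log2 level of 1.09 in CP and 2.13 in GZ (-1.04 ± 0.23, 2.06-fold lower in CP, adjusted p = 0.00753). VARS2, for valine, had 4.91 in CP and 4.69 in GZ (0.23 ± 0.08, adjusted p = 0.0427) and was not called without any of the 6 libraries (0.0712 to 0.116). Of 4 measured genes for mitochondrial transcription and RNA handling, LRPPRC and its partner SLIRP, which together stabilise mitochondrial messenger RNAs, were both higher in CP. That is 50.0% called, near the 45.4% of all tested genes. LRPPRC had 6.47 in CP and 6.13 in GZ (0.34 ± 0.07, adjusted p = 0.00537), and SLIRP had 5.22 in CP and 4.88 in GZ (0.34 ± 0.08, adjusted p = 0.0139; 0.0589 without GZ library 1). Without both libraries numbered 1 limma called none of either list, with 1 synthetase gene lower in CP and 2 genes of the second list higher at an unadjusted p under 0.05.

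Regulators of nuclear genes for mitochondria gave calls in both directions. Of 8 tested 2 were higher in CP and 4 were lower. MYC, a growth regulator, had a mean log2 level of 3.76 in CP and 2.78 in GZ (0.97 ± 0.11, 1.97-fold higher in CP, adjusted p = 0.000469). PPARGC1A, a coactivator of mitochondrial biogenesis, had 1.44 in CP and 0.62 in GZ (0.82 ± 0.20, adjusted p = 0.0117). NRF1, an activator of many nuclear genes for mitochondria, was lower, at 3.63 in CP and 4.46 in GZ (-0.83 ± 0.12, 1.78-fold, adjusted p = 0.00121). GABPA, the DNA-binding part of the factor also known as NRF2, had 4.03 in CP and 4.73 in GZ (-0.70 ± 0.14, adjusted p = 0.00518). MYC and NRF1 alone were called without both libraries numbered 1 (0.92 and -0.91), where 25.0% of all tested genes were called.

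The respiratory chain and the cytosolic ribosome are given for comparison. In all tested genes 20.9% were higher in CP and 24.5% were lower. Of 45 measured nuclear subunits of oxidative phosphorylation 13 were higher in CP and 1 was lower (31.1% called, against 45.4% of all tested genes), with a median difference of 0.11. COX5A, a subunit of cytochrome c oxidase, was one of these, at a mean log2 level of 6.04 in CP and 5.39 in GZ (0.65 ± 0.08, adjusted p = 0.000701). The calls of this list were 8 in all without CP library 1 and 7 without GZ library 1, and 4 without both. Of 56 tested identifiers of cytosolic ribosomal protein genes 29 were higher in CP (51.8%) and none was lower by limma, with a median of 0.30, and without both libraries numbered 1 this was 6 and none. At an unadjusted p under 0.05 none was lower in CP either, in both fits. RPL37A of the large cytosolic subunit had a mean log2 level of 7.82 in CP and 7.24 in GZ (0.57 ± 0.12, adjusted p = 0.00540). For the mitochondrial family the same counts were 8 and 5 of 44, with a median of -0.03, and the difference between the families was not tested. The 13 messages encoded in the mitochondrial genome itself were not found by symbol among the RNA values, where 65.8% of the identifiers had a symbol.

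**Figure D4:**
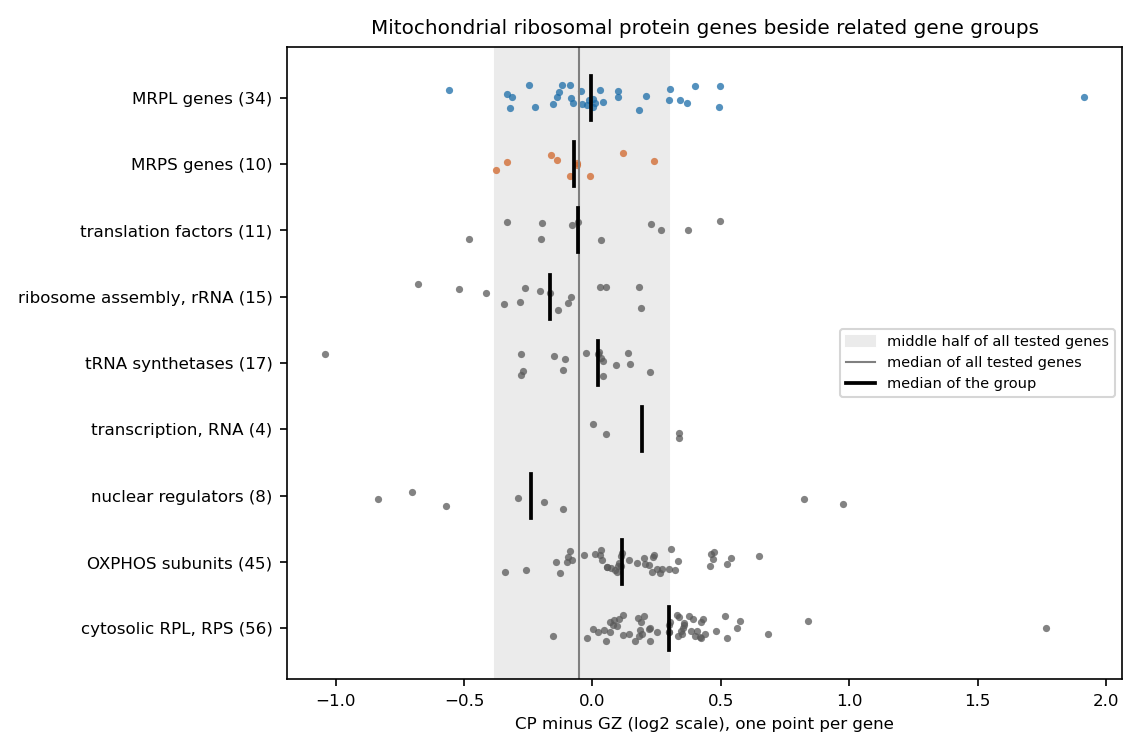
Difference between CP and GZ (CP minus GZ, log2 scale, x axis) of each tested gene in the large and small subunit of the mitochondrial ribosome and in 7 related gene groups, with the number of tested genes in brackets and the median of each group as a black bar. The grey band spans the quartiles of all tested genes, -0.38 to 0.30; the bars of the large and small subunit lie at -0.0056 and -0.07, and those of oxidative phosphorylation subunits and cytosolic ribosomal proteins lie to the right at 0.11 and 0.30.

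Neighbouring genes could share reads with a member, since the sources used here do not state the strand setting of the counting. In RefSeq's annotation of another macaque assembly (T2T-MMU8v2.0), used here for gene order only, 10 of the 44 members overlapped another protein-coding gene. MRPL11 is left out of these counts because its record there spanned many genes and may be an annotation error. In 21 pairs of a member and a tested gene that overlapped it or lay within 1 kb, 6 of the neighbours were called, none of them beside a called member, and 2 of the 6 were called without both libraries numbered 1. Over all tested genes 45.4% were called, and 25.0% without both libraries numbered 1. NCAPD2, a condensin subunit used in mitosis, had a mean log2 level of 3.33 in CP and 4.95 in GZ beside MRPL51 (4.79 in CP and 4.87 in GZ, adjusted p = 0.404). ACTL6A, a chromatin remodelling subunit of dividing progenitors, had 4.33 in CP and 5.11 in GZ where it overlapped MRPL47. DDA1, which overlapped MRPL34, differed by 0.08 ± 0.09 (adjusted p = 0.535).

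The next protein-coding genes on either side of the 13 called members were 26. Of these 13 were tested and 5 called (3 of the 5 without both libraries numbered 1), where 45.4% of all tested genes were called. In the direction of their member were LYPLA1 beside MRPL15 (0.69 ± 0.08, 5.43 in CP and 4.74 in GZ by mean log2 level) and OSCP1 beside MRPS15 (0.49 ± 0.17). Against it were DCHS1 beside MRPL17 (-0.78 ± 0.09), HDGF beside MRPL24 (-0.53 ± 0.11) and ANO8 beside MRPL34 (-0.48 ± 0.12). Both genes next to MRPL16 are not analysed here. Processed pseudogenes of many mitochondrial ribosomal proteins are known in primates, and the sources used here do not state how reads matching several places were counted, so levels of single members carry that uncertainty.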

How the data were processed

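The deposited RNA table holds log2 FPKM after cqn normalization by the authors, per the labels. The submitters' processing notes name STAR and SAMtools, with Mmul_8.0.1 and rheMac8 as builds and no roles; the sources used here do not state the read counter. Depth is unknown. Hi-C, DNase and CTCF files were not used. Groups and replicate numbers came from the sample titles.

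Genes with a mean log2 value of 0 or more over the 6 libraries (13460 of 22345) were tested with limma 3.58.1 in R 4.3.3 (lmFit, eBayes with trend), CP minus GZ, with no pseudocount or block, and p-values were adjusted by Benjamini-Hochberg over all of them; a gene is called at an adjusted p under 0.05. The fit was tested on simulated data. Summaries used Python 3.11.15 with pandas 2.3.3 and numpy 2.4.6.

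Members and lists were chosen with earlier results of these data known. Named genes are up to 8 called members without overlap per direction, the highest and lowest of each subunit, paralogs and disease genes, and up to 4 called genes of each other list; neighbours and others were chosen after their values were seen. Alternatives were a replicate block, other filters, a pseudocount, median centring, quantile normalization, other variance models, subunits by structure, and libraries left out.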

Additional observations from a re-analysis of the deposited data

How the results depend on the processing

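Members called higher in CP were 8, and 4 with no filter on low values, 5 with eBayes without trend, 1 without both libraries numbered 1, and 3 to 8 with 1 library left out; those higher in GZ were 5, and then 3 with no filter, 0 without both libraries numbered 1 (3 at an unadjusted p under 0.05) and 1 to 4 with 1 library left out. Large-subunit genes called higher in CP were 7, with 4 under no filter, 1 without both libraries numbered 1 and 3 to 8 with 1 left out, and those higher in GZ were 3, with 0 and 1 to 3 in the last 2 settings. In the small subunit the 1 call higher in CP was 0 under the replicate block, no filter, quantile normalization, eBayes without trend, robust eBayes, without both libraries numbered 1 and with any 1 library left out. The 2 small-subunit calls higher in GZ were 1 with no filter, with eBayes without trend and with subunits by structure, 0 without both libraries numbered 1 and 0 to 2 with 1 left out. Calls over all genes were 2816 and 3297 higher in CP and GZ, and 1716 and 1647 without both libraries numbered 1. With 1 library left out they were 2243 to 2855 higher in CP and 2261 to 3146 higher in GZ. The median difference of the large subunit ranged from -0.040 to 0.011 with 1 library left out. No named called gene changed direction in any of these alternatives. Leaving libraries out cannot turn the direction of a gene whose tissues do not overlap, so those settings were no check of it. Fewer libraries also lower what the test can call, and no other cause was tested.

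Same-numbered CP and GZ libraries had correlations of their deviations from the tissue means of -0.38, 0.30 and 0.35 for numbers 1, 2 and 3, so the numbers were not taken as pairs; CP library 1 was most like GZ library 2, the others like their own number. With the replicate block 7 members were higher in CP and 5 in GZ, and all tested genes gave 2817 and 3300.

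Depth is unknown, so no counting error can be given, and precision rests on 3 libraries per tissue.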
